A study of Mus musculus with 12 samples.

Results

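miR-126 is a microRNA (miRNA) of endothelial cells whose hairpin precursor gives rise to a pair of mature strands, miR-126-3p and miR-126-5p. Both were measured here in the ileum of young NOD mice, and they were chosen by name, as the probes mmu-miR-126-3p and mmu-miR-126-5p. They are 2 of 566 mouse miRNA probes on the panel and 2 of the 226 mouse probes that were tested, which are those above a signal of 32 units in at least 4 libraries. All 12 libraries came from male NOD/ShiLtJ mice, an inbred strain prone to autoimmune diabetes, at postnatal day 23. The labels place 4 libraries in a cecal material transfer group, 4 in a 1PAT antibiotics group and 4 in a control group. They name neither the antibiotic nor its dose, and they do not state whether the cecal material transfer mice had received antibiotic as well. Dams were assigned to the groups together with their litters. The litter of each mouse is not labelled, so libraries of a group may come from littermates, and the p-values below reflect only their spread. The labelled tissue is ileum, whereas the series' design text names intestinal epithelial cells as the RNA source.

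In endothelial cells the miR-126 hairpin is cut out of an intron of Egfl7, the gene of a protein that these cells secrete. In mouse and zebrafish, miR-126-3p lowers Spred1 and Pik3r2, which restrain signalling downstream of the vascular growth factor VEGF, and it is needed for intact vessels. In mouse, miR-126-5p lowers the Notch ligand homologue Dlk1 and sustains endothelial proliferation. The strands derive from the same hairpin, and the number of mature molecules of each depends on which strand is loaded into Argonaute and on how long each lasts. Platelets and blood progenitor cells also carry miR-126.

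The sequences below come from RefSeq on GRCm38.p6, which names the locus Mir126a with mmu-mir-126 as a synonym, and they are shown because the results compare the arms of this hairpin. The mature entry for the 3p arm was matched, 1 of the 2 members. In the mature strand the capitals mark the seed, bases 2 to 8. In the hairpin they mark the stretch that gives miR-126-3p, which occupies positions 46 to 67 of 73.
mmu-miR-126a-3p: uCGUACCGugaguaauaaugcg
Mir126a hairpin: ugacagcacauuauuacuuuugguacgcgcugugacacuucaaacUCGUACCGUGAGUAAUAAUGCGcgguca
The hairpin lies at chr2:26591357-26591429 on the plus strand. This is within the span of Egfl7 (chr2:26581083-26592682), 10274 bases from its start. The mature 3p strand lies at chr2:26591402-26591423. Of 1738 mature mouse entries in the RefSeq table, which is not complete, 1 has the seed CGUACCG, namely miR-126-3p.

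Levels were read with the nCounter assay, in which a tag is joined to each mature miRNA and coloured reporters are counted without amplification. The deposited signal is a whole count multiplied by a factor for each library, and a group value below is a mean of this normalised signal with its SD. Depth was not the same in the groups. Recovered counts added up to 280114 to 393551 in cecal transfer libraries, 120235 to 148297 in antibiotic libraries and 169844 to 274302 in control libraries. The 33 herpesvirus probes, used here as background probes, averaged 9.37 to 12.5 units per library in cecal transfer, 13.8 to 17.5 in antibiotic and 11.8 to 27.5 in control libraries. The highest of these was control replicate 3, where 1 virus probe reached 426 units. The tests of both arms, the arm difference and the marker lists were therefore repeated without that library. The fit across all 226 probes (limma on log2(signal + 1), Benjamini-Hochberg adjustment, threshold 0.05) called 68 of them in cecal transfer against control, 74 in cecal transfer against antibiotic and 0 in antibiotic against control. The split of calls moved with the scaling. In cecal transfer against control 41 were higher and 27 lower, but 28 and 28 with median centring, 26 and 27 with quantile normalization and 76 and 10 with background subtracted. Against antibiotic 45 were higher and 29 lower, but 22 and 32 with median centring, 23 and 28 with quantile normalization and 33 and 11 with background subtracted.

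miR-126-3p was among the most abundant miRNAs of the ileum and stayed within a narrow range. Its signal lay between 4783 and 6163 units over the 12 libraries, a 1.29-fold span, and it ranked 9 to 16 among the 566 mouse probes of a library. It was 212 to 586 times the mean of the virus probes. In cecal transfer libraries it had 5487, 5296, 5345 and 5571 units. In antibiotic libraries it had 5962, 4783, 4998 and 5141 units. In control libraries it had 5278, 5243, 5844 and 6163 units. All 4 cecal transfer values fell inside the range of the control libraries and inside that of the antibiotic libraries.

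The group means of miR-126-3p were 5425 ± 127 units in cecal transfer, 5221 ± 516 in antibiotic and 5632 ± 448 in control libraries (SD, n = 4 each). No neighbours in this order differed past the threshold. The log2 difference was −0.05 (SE 0.075, limma adjusted p = 0.697) for cecal transfer against control, 0.06 (adjusted p = 0.589) for cecal transfer against antibiotic and −0.11 (adjusted p = 0.462) for antibiotic against control. The 95% interval of the fold was 0.863 to 1.08 for cecal transfer against control, 0.932 to 1.17 for cecal transfer against antibiotic and 0.828 to 1.03 for antibiotic against control. The sign of both cecal transfer differences was not stable, since that against antibiotic was −0.03 with median centring and that against control was 0.04 with quantile normalization. Antibiotic against control kept its sign and was not called in the settings tried. The difference of cecal transfer from control was −0.03 without control replicate 3 (limma adjusted p = 0.819).

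miR-126-5p was far weaker and was lowest after cecal transfer. Its signal lay between 301 and 478 units over the 12 libraries, a 1.59-fold span, at ranks 58 to 77, and was 15.1 to 36.6 times the mean of the virus probes. In cecal transfer libraries it had 304, 330, 301 and 336 units. In antibiotic libraries it had 473, 367, 417 and 389 units. In control libraries it had 375, 430, 415 and 478 units. Every cecal transfer library was lower than every library of the other groups, while the antibiotic and control libraries overlapped over most of their range.

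**Figure D1:**
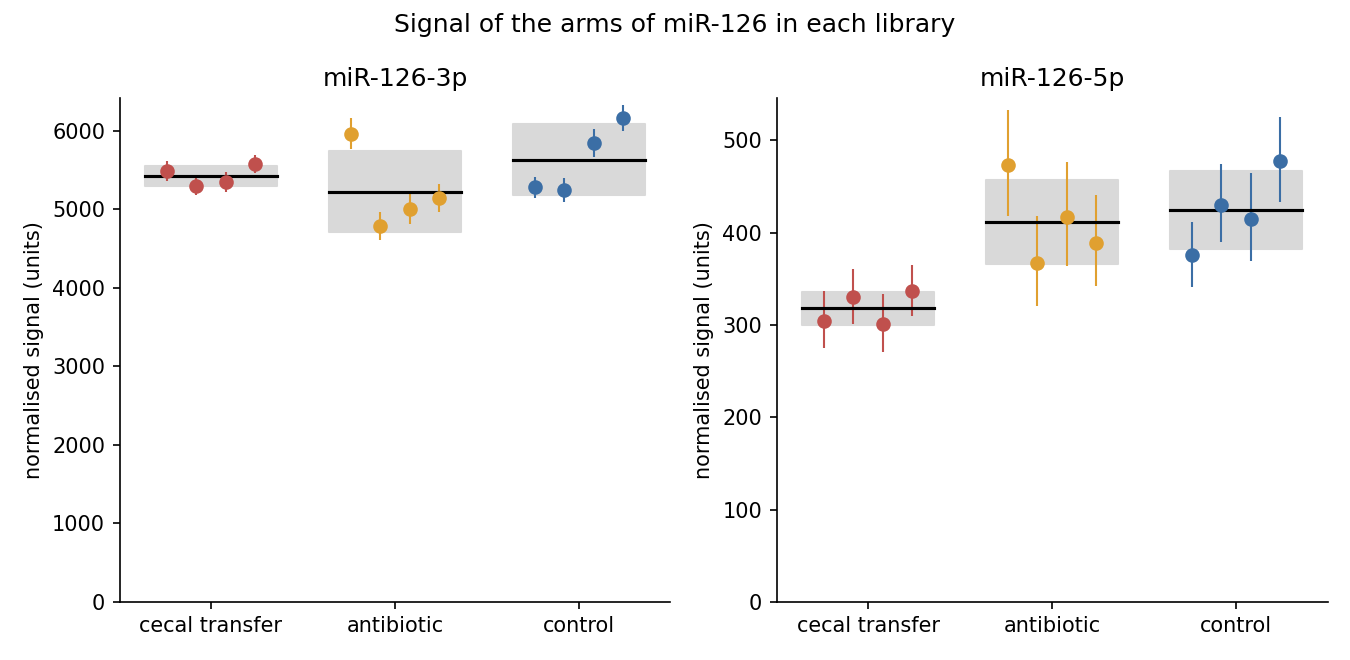
Normalised signal (units, linear axis from 0) of miR-126-3p on the left and miR-126-5p on the right in each of the 12 libraries, by group. Points are libraries with exact 95% Poisson intervals of their counts, lines are group means and grey bands are ± SD (n = 4). The cecal transfer libraries lie between 301 and 336 units of miR-126-5p, under all others, and among the others for miR-126-3p.

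The group means of miR-126-5p were 318 ± 17.8 units in cecal transfer, 412 ± 45.9 in antibiotic and 425 ± 42.3 in control libraries (SD, n = 4 each). miR-126-5p fell by 0.41 on the log2 scale in cecal transfer against control (SE 0.097, limma adjusted p = 0.00556), a 1.33-fold lower level with a 95% interval of the fold of 0.650 to 0.868. Among the tested probes 11.9% were called lower in this comparison and 30.1% in either direction, and miR-126-5p ranked 33 by p and 56 by size. Against antibiotic it fell by 0.37 on the log2 scale (SE 0.097, limma adjusted p = 0.0109), a 1.29-fold lower level. There 12.8% of the tested probes were called lower and 32.7% in either direction, and its rank was 42 by p and 76 by size. The share of tested probes whose 4 libraries all lay under those of the other group was 12.8% against control and 13.7% against antibiotic. A call in these comparisons was thus common, and that of miR-126-5p held a middle rank among them by p. Both comparisons use the same cecal transfer libraries. RNA of whole samples cannot tell fewer cells of a type from less of the miRNA per cell.

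Antibiotic and control libraries did not differ past the threshold in miR-126-5p, with a log2 difference of −0.05 (SE 0.097, limma adjusted p = 0.883) and a 95% interval of the fold of 0.839 to 1.12. In that comparison 0% of the tested probes were called by limma and 34 had an unadjusted p under 0.05. edgeR called 0 and DESeq2 called 3. In the moderated F test, 32.3% of the tested probes passed, among them miR-126-5p (adjusted p = 0.00770) and not miR-126-3p (adjusted p = 0.498).

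Without control replicate 3, miR-126-5p was lower in cecal transfer than in control by 0.42 on the log2 scale (adjusted p = 0.0122). Both calls of miR-126-5p ended with log2 depth as a covariate and with the background subtracted, with or without control replicate 3. With log2 depth as a covariate the log2 difference was −0.35 against control (adjusted p = 0.192) and −0.25 against antibiotic (adjusted p = 0.637). With the mean plus 2 SD of the virus probes subtracted it was −0.22 against control (adjusted p = 0.281) and −0.33 against antibiotic (adjusted p = 0.185). That background limit was 172 units in control replicate 3, where the SD of the virus probes was 72.1 units, against 29.7 to 77.8 units in the other 11 libraries. Without that library the same subtraction gave −0.37 against control (adjusted p = 0.0646) and −0.33 against antibiotic (adjusted p = 0.0753). Subtraction of the virus mean alone gave −0.40 (adjusted p = 0.00884) and −0.36 (adjusted p = 0.0161).

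**Figure D2:**
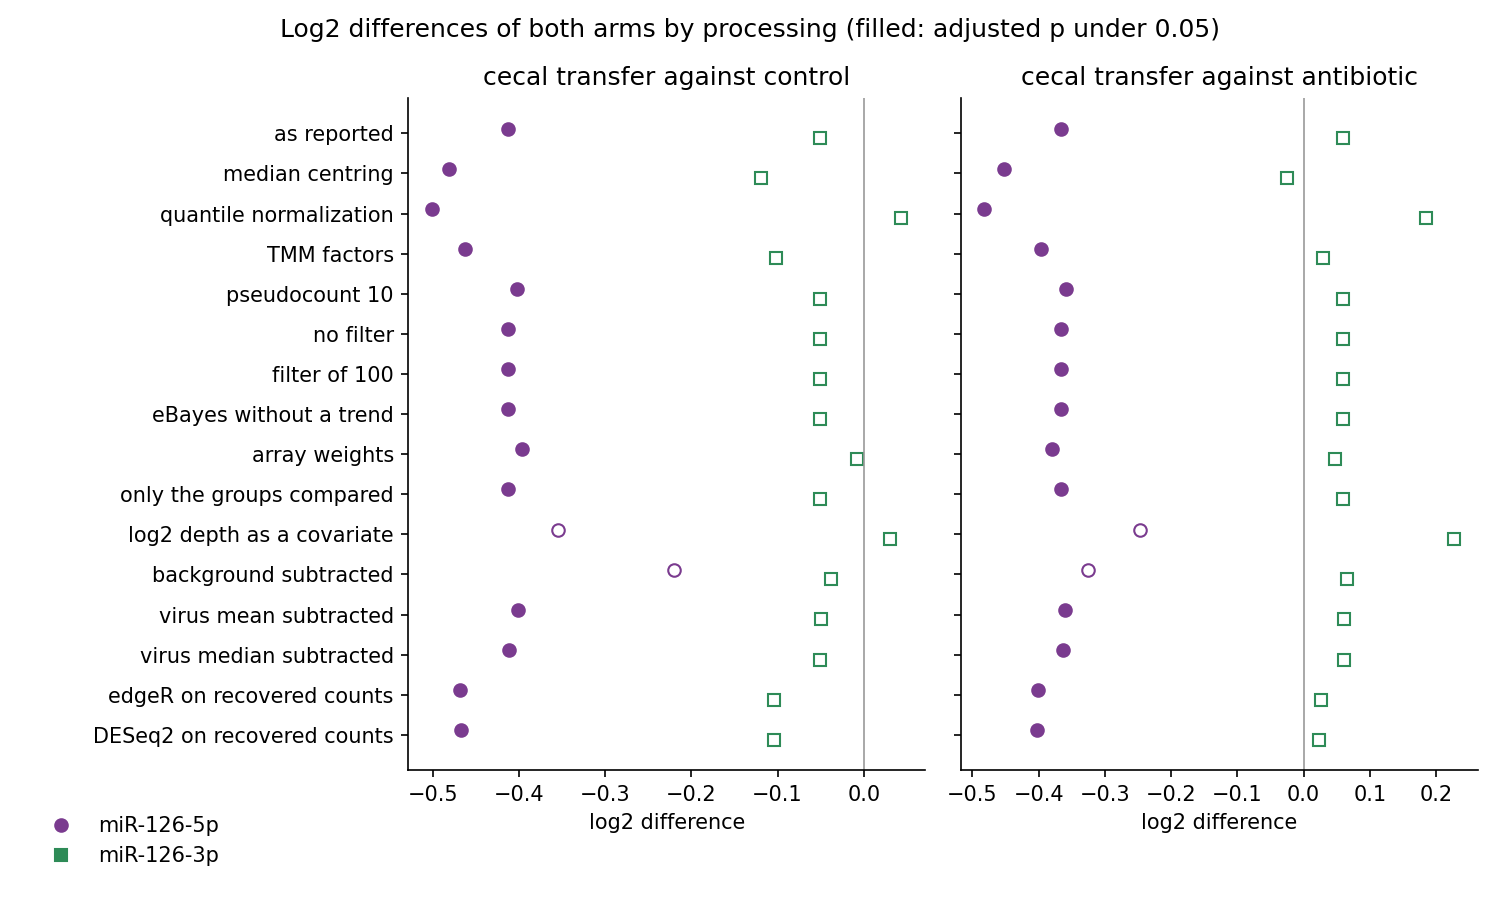
Log2 differences (horizontal axes) of miR-126-5p (circles) and miR-126-3p (squares) for cecal transfer against control on the left and against antibiotic on the right, with 1 line for each processing setting. Filled symbols have an adjusted p under 0.05. miR-126-5p lies between −0.50 and −0.22 in the left panel and is open with log2 depth as a covariate and with the background subtracted, while every miR-126-3p symbol is open.

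The arms were next set against each other within each library, where the factor of the library cancels. Probes can differ in how well they are tagged and bound, so the ratio of their signals is not a ratio of molecules, and only its change between libraries is read. The ratio of miR-126-3p to miR-126-5p signal was 18.02, 16.06, 17.77 and 16.57 in cecal transfer libraries. It was 12.60, 13.03, 11.98 and 13.22 in antibiotic libraries. It was 14.06, 12.18, 14.09 and 12.90 in control libraries. The lowest cecal transfer ratio was above the highest of the 8 other libraries.

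In counts, miR-126-5p made up a smaller share of the pair after cecal transfer. The share was 5.54 ± 0.290% of the counts of both arms in cecal transfer, 7.30 ± 0.299% in antibiotic and 7.01 ± 0.466% in control libraries (SD, n = 4 each). It ranged from 5.26% to 5.86% in cecal transfer, from 7.03% to 7.71% in antibiotic and from 6.63% to 7.59% in control libraries. The miR-126-5p counts behind it numbered 363 to 570 in cecal transfer, 217 to 272 in antibiotic and 297 to 444 in control libraries. The exact (Clopper-Pearson) 95% interval reached 5.37% to 6.39% in cecal transfer replicate 2, the library of highest share in its group, and 5.92% to 7.39% in control replicate 3, the lowest of its group. These intervals overlapped, and they cover counting error only.

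**Figure D3:**
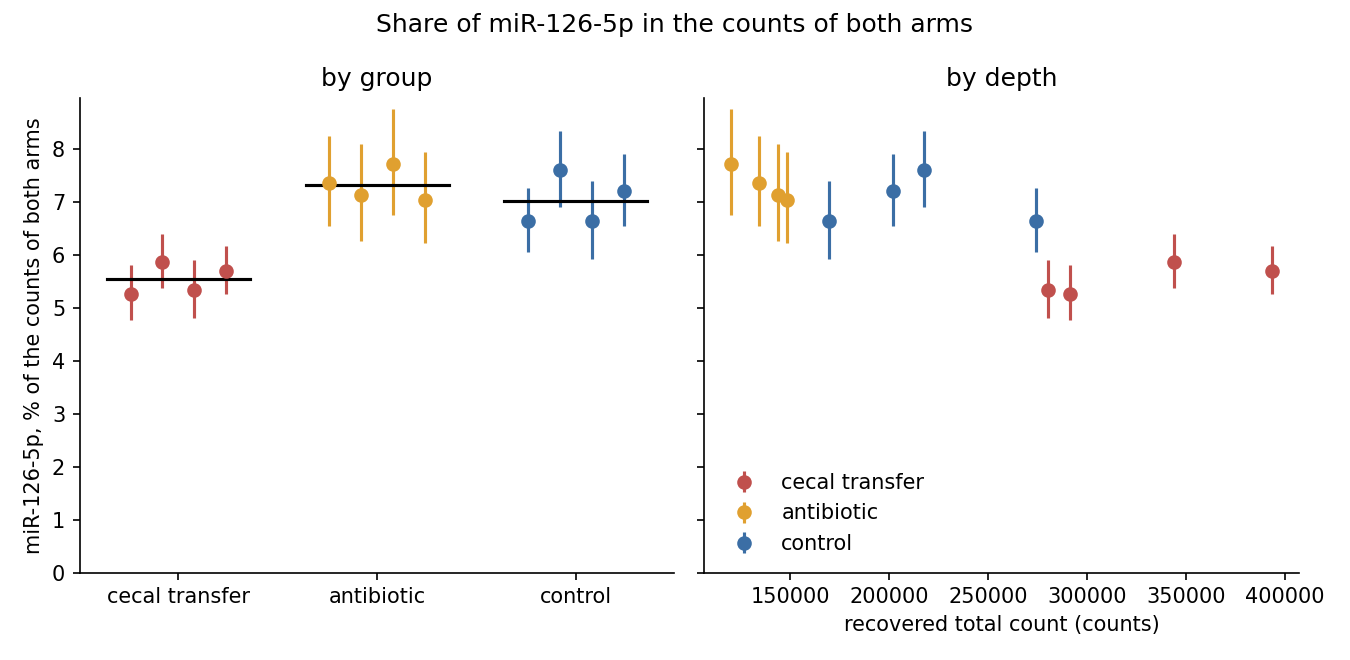
Counts of miR-126-5p as a percentage of the counts of both arms (vertical axis from 0), by group on the left and against the recovered total count on the right. Points are libraries with exact 95% binomial intervals, and lines are group means. The cecal transfer libraries lie between 5.26% and 5.86% and the others between 6.63% and 7.71%.

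On the log2 scale the difference between the arms was 4.09 ± 0.080 in cecal transfer, 3.66 ± 0.063 in antibiotic and 3.73 ± 0.102 in control libraries (SD, n = 4 each). It was larger in cecal transfer than in control by 0.36 (SE 0.065), a 1.28-fold larger ratio, with exact two-sided permutation p = 0.0286 and 0.0429 after adjustment over the 3 pairs of groups. Against antibiotic it was larger by 0.43 (SE 0.051), a 1.34-fold larger ratio, with the same exact p values. No exact p under 0.0286 is possible with groups of 4. Antibiotic and control did not differ past the threshold (−0.07, SE 0.060, exact p = 0.343, adjusted p = 0.343). Without control replicate 3 the arm difference was larger in cecal transfer than in control by 0.39. With all 12 libraries the cecal transfer group did not overlap the others, so leaving a library out could not make them overlap. With the mean plus 2 SD of the virus probes subtracted, the difference from control was 0.18 (exact p = 0.343) and the groups overlapped, and without control replicate 3 it was 0.34 and they did not.

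Depth moved with the groups, and so its part in the arm difference could not be told apart from theirs across groups. Control replicate 1 and cecal transfer replicate 3 had nearly equal depth. At a total count of 280114 the share of miR-126-5p was 5.33% in cecal transfer replicate 3, against 6.64% at 274302 in control replicate 1. Within the cecal transfer group the 2 deepest libraries had the higher shares, 5.86% and 5.69%, against 5.33% and 5.26% in the 2 shallower ones. In the antibiotic group the order was the opposite, with 7.71% in the shallowest and 7.03% in the deepest library. In the control group the shallowest and the deepest library had 6.63% and 6.64%, and those between had 7.19% and 7.59%. With log2 depth in a linear model of the arm difference, the change was 0.38 (SE 0.101) against control and 0.47 (SE 0.175) against antibiotic.

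Both arms were tested for 7 other precursors on the panel, which gives a comparison for the arm difference. The log2 arm difference of these precursors changed by −0.70 to 0.22 in cecal transfer against control, with a median of −0.15, and by −0.66 to 0.35 against antibiotic, with a median of −0.03. The groups did not overlap in 12.5% of the 8 precursors in cecal transfer against control, which was miR-126 alone. Without control replicate 3 the groups of miR-151 did not overlap either, with a change of 0.29 beside 0.39 for miR-126. They did not overlap in 25.0% against antibiotic, which were miR-126 and miR-340, whose change was −0.54. miR-126 ranked 4 in size against control and 3 against antibiotic. Its within-group SD of 0.083 was the smallest of the 8, the others having 0.166 to 0.446. In most of the others 1 arm was weak, as for miR-151-3p with a mean of 45.1 units and miR-142-5p with 52.5 units. The arms of miR-199a, which smooth muscle and fibroblasts carry, averaged 1692 units for 3p and 1154 for 5p, and their difference changed by 0.13 against control and 0.14 against antibiotic.

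**Figure D4:**
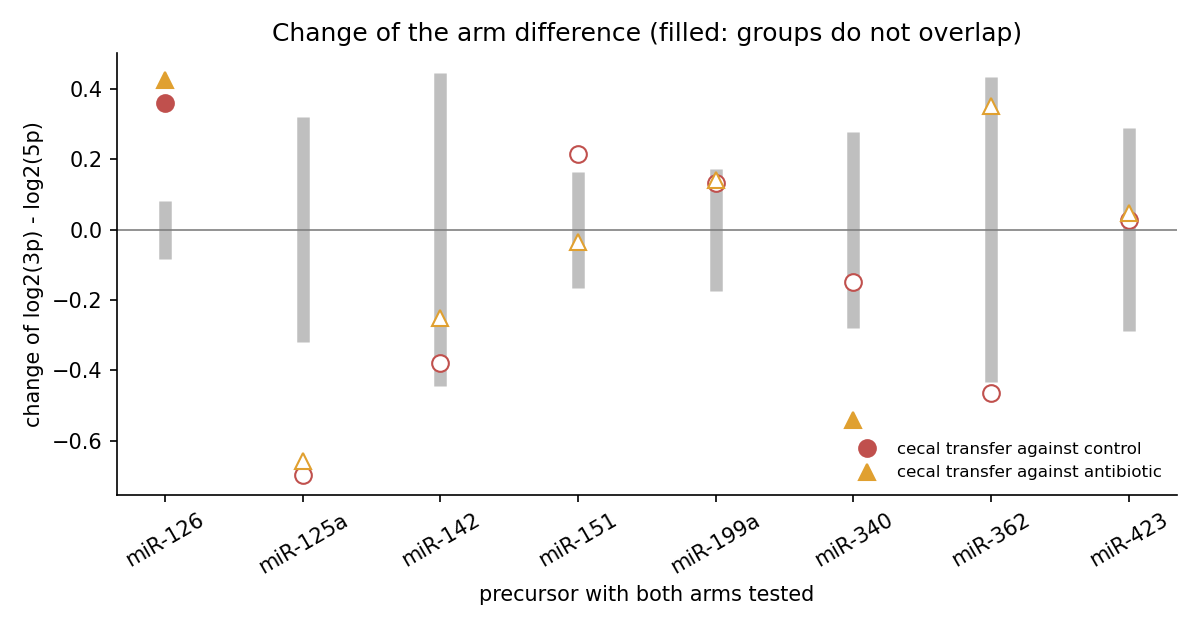
Change of the difference log2(3p) − log2(5p) (vertical axis) in cecal transfer against control (circles) and against antibiotic (triangles) for the 8 precursors with both arms tested. Filled symbols mark groups whose libraries do not overlap, and grey bars span the within-group SD on either side of 0. miR-126 lies at 0.36 and 0.43, with an SD of 0.083.

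The relation between the arms across libraries was examined next. Because the cecal transfer libraries stood apart in miR-126-5p, it was taken over the 8 antibiotic and control libraries. Pearson's r of the log2 signals was 0.80 (exact permutation p = 0.0243, adjusted p = 0.0485) and Spearman's rho was 0.69 (exact permutation p = 0.0694, adjusted p = 0.0694). The permutations take no account of the scaling factor that both arms of a library share. Without the 2 libraries farthest from the median of miR-126-3p, r was 0.45 (n = 6, exact permutation p = 0.378), so the relation is past the threshold only with those 2 libraries, whose removal also narrows the range of miR-126-3p. With control replicate 3 alone left out, r was 0.86 (n = 7, exact permutation p = 0.0238). The 4 cecal transfer libraries are too few for a value of their own.

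The probes most like each arm over the 12 libraries were not the same. By Pearson's r of log2 signal, given as a description, those nearest to miR-126-3p among 225 other tested probes were miR-1 (r = 0.82), miR-99a (0.80), miR-300 (0.70), miR-1900 (0.67) and miR-127 (0.61). miR-1 is a miRNA of striated muscle, and after removal of the group means its r with miR-126-3p was 0.86. Those nearest to miR-126-5p were miR-139-5p (0.85), let-7i (0.85), the probe for miR-20a and miR-20b (0.84), miR-106b (0.82) and miR-421 (0.82). All 5 had their lowest group mean in cecal transfer, as miR-126-5p did, and with the group means removed their r was 0.30 to 0.68. The shared low mean follows largely from choosing them by r over all 12 libraries, so it is no separate result. The other arm held place 24 for miR-126-3p and place 50 for miR-126-5p, with r = 0.38 over all 12 libraries and 0.77 with the group means removed. These values share the scaling of each library.

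Other miRNAs linked to endothelium and vessel growth changed in both directions. A list of 12 such names, miR-126 included, matched 14 probes, of which 10 were tested. In cecal transfer against control 3 rose and 2 fell, against 18.1% higher and 11.9% lower among all tested probes. Those that fell, here and against antibiotic, include miR-126-5p itself. The list's median log2 difference, with both arms of miR-126 included, was 0.01, against 0.05 over all tested probes. Against antibiotic 3 rose and 2 fell as well, with a median of 0.09 against 0.04, where 19.9% of all tested probes were higher and 12.8% lower. In antibiotic against control none passed, and the median was 0.17 against 0.01.

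The members that rose were miR-130a, which represses anti-angiogenic homeobox genes in human endothelial cells, miR-322, the mouse counterpart of the human hypoxia-induced miR-424, and miR-27b, of a cluster linked to vessel sprouting. miR-130a averaged 341 units in cecal transfer, 207 in antibiotic and 173 in control libraries (log2 0.98 against control, adjusted p = 4.38e-05). miR-322 averaged 449 units in cecal transfer, 185 in antibiotic and 123 in control libraries (log2 1.94 against control, adjusted p = 0.000281). miR-27b averaged 208 units in cecal transfer, 153 in antibiotic and 113 in control libraries (log2 0.88 against control, adjusted p = 0.000104). Besides miR-126-5p, miR-23b fell, although it comes from the same cluster as miR-27b, with 591 units in cecal transfer, 1431 in antibiotic and 1206 in control libraries (log2 −1.01 against control, adjusted p = 0.00017). Of those that did not pass, miR-221 (−0.33), miR-210 (0.04), miR-132 (−0.02) and miR-218 (0.26) had these log2 differences from control. miR-222, miR-92a and both arms of miR-296 were too weak to be tested.

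miRNAs of other cell types moved between the same groups, and their part in the difference of miR-126-5p was not tested. Of 8 epithelial miRNAs, all tested, 5 fell in cecal transfer against control, 4 fell against antibiotic and none rose, where 11.9% and 12.8% of all tested probes were lower. With control replicate 3 left out, 4 fell against control and 5 against antibiotic, and with quantile normalization 2 fell against control. Their summed signal was 27391 to 31959 units in cecal transfer, 34373 to 39354 in antibiotic and 31332 to 43975 in control libraries. The enterocyte miRNA miR-194 averaged 6478 units in cecal transfer, 10403 in antibiotic and 12337 in control libraries. miR-429, of the miR-200 family that maintains epithelial identity, averaged 4389 units in cecal transfer, 5592 in antibiotic and 5331 in control libraries. The family member miR-200b averaged 5012 units in cecal transfer, 5294 in antibiotic and 5098 in control libraries (limma adjusted p = 0.882 against control). Also not called against control were miR-200a (log2 −0.03) and miR-375 (log2 −0.11). Of 4 tested smooth muscle and fibroblast probes 3 rose in each cecal transfer comparison, where 18.1% of all tested probes were higher against control and 19.9% against antibiotic. Without control replicate 3, 2 rose against control, and with median centring 1 rose against control and 0 against antibiotic. Their sums were 38997 to 46958 units in cecal transfer, 31969 to 34402 in antibiotic and 28183 to 35486 in control libraries. miR-145 averaged 30024 units in cecal transfer, 22557 in antibiotic and 19976 in control libraries. miR-143 averaged 9722 units in cecal transfer, 8379 in antibiotic and 8574 in control libraries, and miR-214 reached no more than 24.6 units in any library.

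Blood cell miRNAs were also read, with lists for leukocytes and erythroid cells. Platelets and blood progenitors also carry miR-126, and no list was made for them. Of 5 leukocyte probes 2 rose against control and 3 against antibiotic, against 18.1% and 19.9% higher among all tested probes, and with quantile normalization 0 rose in either comparison. The 2 that rose against control were miR-142-5p and miR-155, a miRNA of activated lymphocytes and macrophages. miR-142-5p averaged 65.5 units in cecal transfer, 46.8 in antibiotic and 45.1 in control libraries (adjusted p = 0.0282 against control). miR-155 averaged 151 units in cecal transfer, 107 in antibiotic and 114 in control libraries (adjusted p = 0.0271 against control). Leukocyte sums were 2029 to 2714 units in cecal transfer, 1781 to 2079 in antibiotic and 1450 to 2644 in control libraries. miR-142-3p, found in all blood lineages, averaged 1037 units in cecal transfer, 884 in antibiotic and 982 in control libraries (adjusted p = 0.661 against control). The lymphocyte miRNA miR-150 averaged 494 units in cecal transfer, 425 in antibiotic and 450 in control libraries (adjusted p = 0.213 against control). miR-223, of myeloid cells, averaged 473 units in cecal transfer, 444 in antibiotic and 464 in control libraries. Against control 2 of 3 erythroid probes rose (miR-486 and miR-144) and against antibiotic 3 did, against the same 18.1% and 19.9%. With median centring or quantile normalization 0 rose against antibiotic. Erythroid sums were 1466 to 1981 units in cecal transfer, 1208 to 1492 in antibiotic and 1128 to 1381 in control libraries. miR-451 averaged 1271 units in cecal transfer, 1002 in antibiotic and 1040 in control libraries (adjusted p = 0.110 against control). miR-144 averaged 304 units in cecal transfer, 239 in antibiotic and 187 in control libraries. The summed signal of both miR-126 arms was 5626 to 5907 units in cecal transfer, 5150 to 6435 in antibiotic and 5653 to 6640 in control libraries, and these ranges overlapped.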

How the data were processed

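Column-purified total RNA was assayed, per the labels' protocols, with the NanoString nCounter mouse miRNA panel V 1.5. Normalised signal of 599 probes (566 mouse, 33 herpesvirus) was deposited. How the authors scaled it is not given in the sources used. All deposited values (100%, within 0.01 of a count) were whole counts multiplied by 1 factor per library, from 0.590 to 1.92 units per count. The 100 highest mouse probes of each library summed to 220014 to 222309 units.

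Mouse probes above 32 units in at least 4 libraries were tested with limma 3.58.1 in R 4.3.3 on log2(signal + 1), with 1 coefficient per group over 12 libraries and a variance trend. Fold changes on this scale understate those of weak probes. Adjustment was over all 226 probes. The arm difference was tested with exact permutations in SciPy 1.17.1. Because the files hold scaled counts, edgeR 4.0.16 and DESeq2 1.42.0 on recovered counts were alternatives only. The other alternatives were other scalings, pseudocounts and filters, no variance trend, array weights, only the groups compared, log2 depth as a covariate, background subtraction and each library left out. The fit was tested on simulated data. Replicates differed by more than counting noise, the chi-square of their counts being 1.79 to 14.7 per degree of freedom.

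Named miRNAs were both arms, the 5 probes of highest correlation with each, called members of the endothelial list, up to 2 abundant members of other lists, and precursors with both arms tested. The weaker arms, untested list members and miR-142-5p, miR-155, miR-223, miR-486, miR-200a, miR-200b and miR-375 were added after values were seen. The abundant members were to be those of highest mean signal. By that rule miR-200b came before miR-429 and miR-223 before miR-150, so miR-429 and miR-150 lay outside it. Members and lists were chosen with earlier results of these data known.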

Additional observations from a re-analysis of the deposited data

How the results depend on the processing

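Calls of miR-126-5p held in 13 of 15 other settings for each cecal transfer comparison, the joint setting and the replicate block below aside, with log2 differences of −0.50 to −0.22 against control and −0.48 to −0.25 against antibiotic. Its F test had adjusted p = 0.160 with log2 depth as a covariate and 0.256 with the background subtracted, and 0.0946 with that subtraction and without control replicate 3, where cecal transfer differed by −0.37 from control and −0.33 from antibiotic, neither past the threshold. With the 12 libraries left out in turn, miR-126-5p had −0.47 to −0.35 against control and −0.42 to −0.30 against antibiotic, and all 24 calls held. Where the library left out belonged to the group not compared, the log2 difference could not change, only its SE. With a library left out, miR-126-5p had an F test adjusted p of 0.00542 to 0.0366. In antibiotic against control it had −0.11 to 0.0126, and 0.11 with the background subtracted. miR-126-3p, never called, turned its sign for cecal transfer against control with quantile normalization (0.0436) and log2 depth (0.0302), and against antibiotic with median centring (−0.0256). With a library left out it had −0.08 to −0.01 against control, 0.02 to 0.13 against antibiotic, −0.18 to −0.07 in antibiotic against control, and an F test adjusted p of 0.154 to 0.719.

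The arm difference had 0.32 to 0.39 against control and 0.40 to 0.46 against antibiotic with a library left out. Adjusted p was then 0.0857 in both. With 3 libraries against 4 the exact permutation p cannot be under 0.0571. Beside it, antibiotic against control had an exact permutation p of 0.171 or more, which enters the adjustment over the 3 pairs. Antibiotic against control had −0.11 to −0.04. With the background subtracted it was 0.18 against control (adjusted p = 0.343) and 0.39 against antibiotic (adjusted p = 0.0857), and 0.34 and 0.39 (both adjusted p = 0.0857) when control replicate 3 was left out too.

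In 6 settings beside those with a library left out, a count of called probes moved by over 1.5 times. In cecal transfer against control 23 were called with log2 depth. In cecal transfer against antibiotic 161 were called with no filter, 0 with log2 depth and 44 with the background subtracted. In antibiotic against control 2 were called with quantile normalization, 1 without a variance trend and 3 with DESeq2. With a library left out the counts were 47 to 67 in cecal transfer against control, 55 to 82 against antibiotic and 0 to 8 in antibiotic against control, the 8 without control replicate 4, 3 without control replicate 1 and 1 without antibiotic replicate 1. Subtraction of the virus mean or median, the joint setting and the replicate block were chosen after seeing the data. Of the animal numbers in the titles, 2 recur in cecal transfer and control, and nothing says that they pair the animals; the deviations of the same-numbered libraries correlated at 0.08 and −0.28. With the number as a replicate block, miR-126-5p had −0.41 against control (adjusted p = 0.0103) and −0.36 against antibiotic (adjusted p = 0.0130), miR-126-3p had −0.04 and 0.07, and 64, 78 and 0 probes were called in the 3 comparisons, so no call of either arm changed. Counts of miR-126-5p, 217 to 570 per library, limit its precision more than those of miR-126-3p, 2599 to 9443.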
